A study of Rattus norvegicus with 352 samples.

Results

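The brain hemispheres of the 85 rats with the highest level of Irf7, called Irf7-high here, were compared with those of the 85 rats with the lowest, called Irf7-low. The hemispheres were chosen by the measured Irf7 level, and each group holds 24.9% of the libraries analysed here. All rats were naive animals of the heterogeneous stock, an outbred population, and none was treated. Each library was made from polyA RNA of a frozen whole brain hemisphere. The groups were set by the measured Irf7 level and not by genotype, age, sex or any exposure. These may still differ between the groups. Estimated counts were scaled to a sum of 1000000 in each library (CPM), and the level of a gene is log2(CPM + 1) throughout. One library with an Irf7 level above 5 was set aside, and the top and the bottom 25% of the others by Irf7 formed the groups. The libraries between them are called the middle libraries. A difference is the mean level in Irf7-high minus that in Irf7-low hemispheres. Because 1 was added before the log, it understates the fold change of genes of low level.

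Irf7 encodes a transcription factor that switches on the genes of type I interferons. Interferons bind a receptor on the cell surface, whose kinases activate transcription factors of the STAT family. With IRF9, STAT proteins form the complex that binds the interferon-stimulated response element and turns on interferon-stimulated genes, Irf7 among them. A low level of this programme is present in the healthy brain without infection. The products of the stimulated genes block viral replication, mark and present proteins, and dampen the response.

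Irf7 itself (GeneID 293624, chr1:205796956-205800543 in GRCr8, minus strand) chose the groups, so its values are a description. Its level had a lowest value of 2.61, a median of 2.95 and a highest of 4.04 in Irf7-high hemispheres, against 0.99, 1.82 and 2.04 in Irf7-low hemispheres. In CPM this was 7.21 ± 2.21 in Irf7-high and 2.503 ± 0.434 in Irf7-low hemispheres (SD, n = 85 each). The estimated counts behind these values averaged 161.8 per library in Irf7-high and 55.6 in Irf7-low hemispheres. The last library inside the top group was at 2.606 and the first outside it at 2.604; the last inside the bottom group was at 2.042 and the first outside it at 2.051. The groups thus cut a continuous range, and no gap separated them. Library totals had medians of 2.21e+07 estimated counts in Irf7-high and 2.15e+07 in Irf7-low hemispheres.

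The gene's promoter and those of 3 interferon-stimulated genes with the motif are printed because they hold the letters of the response element. The windows are RefSeq's (GRCr8), 250 bases before to 50 after a transcript start, on the strand of the gene. Capitals mark the motif of GAAA, NN and GAAA in direct succession (N, any base), or the same motif read on the other strand, TTTC, NN and TTTC, with overlaps allowed. The windows lie at chr1:205799974-205800273 (Irf7, minus strand), chr1:241527076-241527375 (Ifit3, plus strand), chr12:41330216-41330515 (Oas1a, plus strand) and chr12:41395803-41396102 (Oas1b, minus strand).
Irf7: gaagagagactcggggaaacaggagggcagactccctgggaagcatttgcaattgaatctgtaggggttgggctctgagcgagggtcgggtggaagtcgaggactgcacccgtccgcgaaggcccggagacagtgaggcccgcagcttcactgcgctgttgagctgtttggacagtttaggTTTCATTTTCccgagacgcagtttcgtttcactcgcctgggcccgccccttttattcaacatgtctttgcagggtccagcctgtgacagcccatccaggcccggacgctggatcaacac
Ifit3: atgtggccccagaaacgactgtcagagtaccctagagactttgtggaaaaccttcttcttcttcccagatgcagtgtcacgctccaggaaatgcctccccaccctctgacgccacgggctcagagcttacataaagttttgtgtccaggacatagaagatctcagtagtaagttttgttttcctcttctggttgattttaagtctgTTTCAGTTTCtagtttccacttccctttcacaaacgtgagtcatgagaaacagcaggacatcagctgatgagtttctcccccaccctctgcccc
Oas1a: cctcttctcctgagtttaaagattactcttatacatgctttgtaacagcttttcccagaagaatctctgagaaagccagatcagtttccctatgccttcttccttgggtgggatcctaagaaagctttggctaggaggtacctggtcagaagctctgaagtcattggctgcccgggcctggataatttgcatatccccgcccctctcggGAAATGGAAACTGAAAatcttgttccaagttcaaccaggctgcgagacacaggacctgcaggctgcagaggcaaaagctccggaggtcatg
Oas1b: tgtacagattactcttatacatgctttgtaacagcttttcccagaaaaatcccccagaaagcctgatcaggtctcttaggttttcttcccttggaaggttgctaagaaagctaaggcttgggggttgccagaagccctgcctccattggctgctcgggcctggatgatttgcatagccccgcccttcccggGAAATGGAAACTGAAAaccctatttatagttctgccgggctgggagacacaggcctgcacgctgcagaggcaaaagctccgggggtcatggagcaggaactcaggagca

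The match begins 69 bases before the annotated start in the Irf7 window and 44 bases before it in the Ifit3 window, as positions -69 and -44. In Oas1a and Oas1b, 2 overlapping matches make the same run of letters, beginning at -41 and -59. The start in the deposited table for Irf7 lies outside the printed window, at 205800543, so this window belongs to another annotated transcript start.

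Interferon-stimulated effector genes were higher in Irf7-high hemispheres. Of 70 listed effectors, 57 had a mean level of at least 1 and were tested with limma across 16678 genes, with Benjamini-Hochberg adjustment over all of them; 44 were higher at an adjusted p under 0.05 and 0 were lower. Over all genes tested, 1.96% were called higher and 1.76% lower. The median difference was 0.18 over the 57 effectors and -0.0022 over all genes tested. Of the effectors, 24 were higher by at least 0.25, a size that 0.282% of all genes reached. Before adjustment, 10.4% of all genes were higher and 12.9% lower at p under 0.05. The other 13 effectors lay below the minimum level, among them Oas2, Oas3, Ifi44l and Ddx60.

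**Figure D1:**
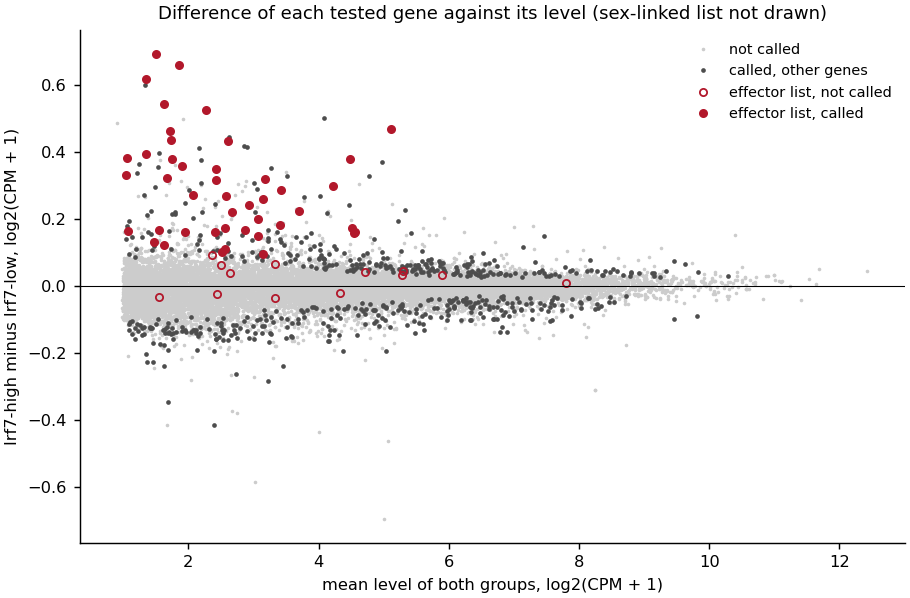
Difference between Irf7-high and Irf7-low hemispheres (vertical axis, log2(CPM + 1)) against the mean level of both groups (horizontal axis) for each tested gene outside the sex-linked list. That list, with Ddx3y at 0.80 and Xist at -1.25, is not drawn. Filled red points are the 44 effectors called higher and open red circles the 13 not called. The largest differences lie at levels below 6, and the effectors make up 24 of the 47 genes called higher by at least 0.25.

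Usp18, which strips ISG15 from proteins and restrains signalling from the interferon receptor, showed the largest difference of the called genes. Its level ran from 1.23 through a median of 1.85 to 2.74 in Irf7-high hemispheres, against 0.57, 1.19 and 1.82 in Irf7-low hemispheres. All 85 Irf7-high hemispheres lay above the Irf7-low median, and 46 lay above every Irf7-low hemisphere. The difference was 0.69 ± 0.043 (SE; adjusted p = 1.42e-32, limma), with mean CPM of 2.70 in Irf7-high and 1.27 in Irf7-low hemispheres. Ifit3, an interferon-induced protein of the IFIT family that binds foreign RNA as part of a complex, ran from 1.02 through 1.83 to 3.48 in Irf7-high hemispheres, against 0.54, 1.34 and 2.31 in Irf7-low hemispheres. The groups overlapped more than for Usp18: 10 Irf7-high hemispheres lay above every Irf7-low one, and 78 above the Irf7-low median. The difference of Ifit3 was 0.54 ± 0.057 (adjusted p = 1.08e-14, limma). Ifit2, of the same family, differed by 0.24 ± 0.032 (adjusted p = 1.63e-09, limma).

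The 2′-5′ oligoadenylate synthetases sense double-stranded RNA and make a small messenger molecule. Oas1a ran from 0.83 through 1.61 to 2.44 in Irf7-high hemispheres, against 0.50, 1.04 and 1.71 in Irf7-low hemispheres. Its values lay above the Irf7-low median in 84 of the 85 Irf7-high hemispheres, and the difference was 0.62 ± 0.040 (adjusted p = 2.49e-30, limma). Oas1b ran from 0.75 through 2.32 to 3.37 in Irf7-high hemispheres, against 0.60, 1.61 and 2.74 in Irf7-low hemispheres, a difference of 0.66 ± 0.095 (adjusted p = 3.02e-08, limma). Its groups spread widely and overlapped over most of their range. Oas1a and Oas1b are near copies whose reads the counting may have split, so each value is uncertain. Oasl2, a related protein, differed by 0.53 ± 0.041 (adjusted p = 1.61e-23, limma), and 42 Irf7-high hemispheres lay above every Irf7-low one.

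**Figure D2:**
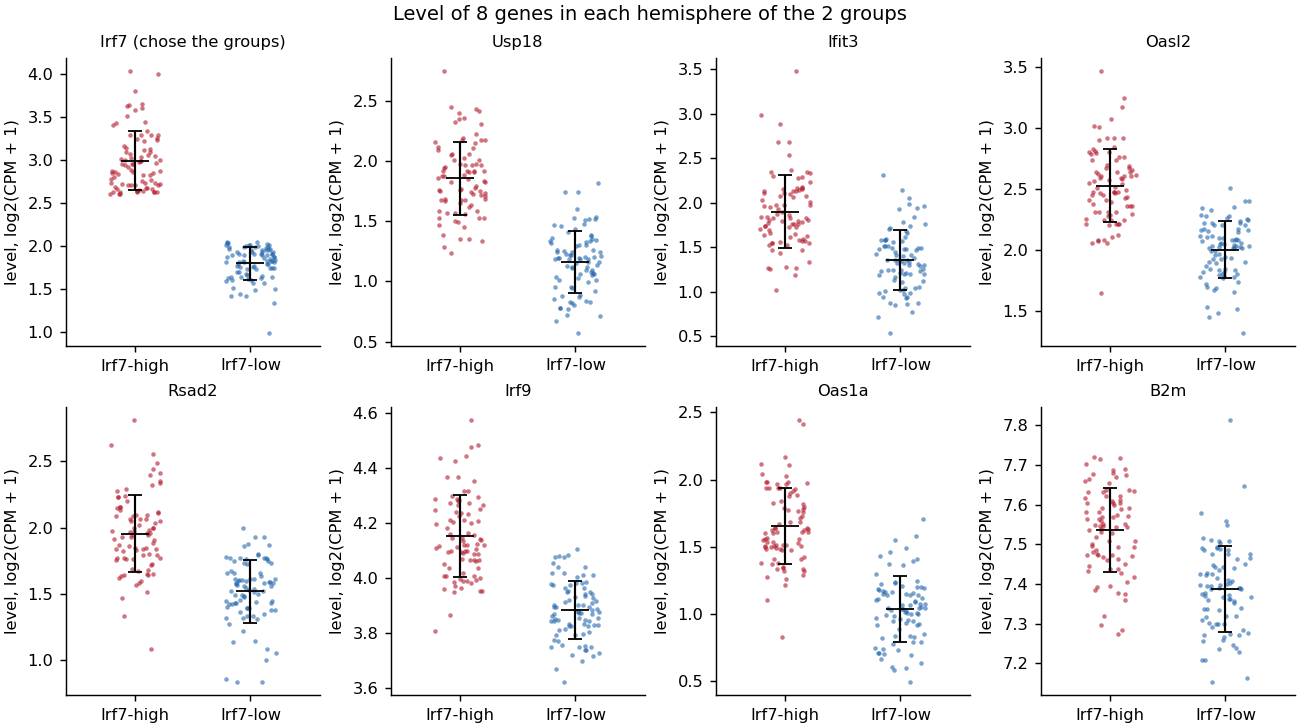
Level of 8 genes in each hemisphere, log2(CPM + 1), with Irf7-high (red) left of Irf7-low (blue); each point is 1 library and the black bar is the mean with its SD (n = 85 each). Irf7 chose the groups. In the other 7 genes the groups overlap, and the Irf7-high mean lies above the Irf7-low mean.

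Further effectors were called higher. Rsad2 (viperin, which makes a chain-terminating nucleotide) ran from 1.08 through 1.95 to 2.81 in Irf7-high hemispheres, against 0.83, 1.54 and 1.99 in Irf7-low hemispheres, a difference of 0.44 ± 0.041 (adjusted p = 8.05e-18, limma). Of the Irf7-high hemispheres, 81 lay above the Irf7-low median. Bst2 (tetherin, which holds budding virus on the cell surface) differed by 0.43, Ifitm3 (which blocks viral fusion) by 0.35, and the dynamin-like GTPases Mx1 and Mx2 by 0.38 each. Ifi27 differed by 0.47, Rtp4 by 0.46 and Apol9a by 0.38, and Slfn2, which is not in the effector list, by 0.41. All of these were also called under each alternative in which they reached the minimum level, except within single blocks of library identifiers, where each of them lost its call in at least 1 block. Ifi27 ran from 4.66 through 5.26 to 6.75 in Irf7-high hemispheres, against 3.74, 4.65 and 5.96 in Irf7-low hemispheres: all 85 Irf7-high hemispheres lay above the Irf7-low median, while 29 Irf7-low hemispheres lay above the Irf7-high median.

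ISG15 is a ubiquitin-like protein that is attached to other proteins by a chain of enzymes, and genes of its attachment and removal were higher. Isg15 itself ran from 0.98 through 1.56 to 2.30 in Irf7-high hemispheres, against 0.69, 1.16 and 1.69 in Irf7-low hemispheres, a difference of 0.39 ± 0.037 (adjusted p = 6.72e-18, limma). The activating enzyme Uba7 differed by 0.36 ± 0.034 (adjusted p = 1.10e-17, limma) and the conjugating enzyme Ube2l6 by 0.32 ± 0.034 (adjusted p = 1.93e-14, limma). Herc6, the ligase that takes this role in mice, differed by 0.22 ± 0.034 (adjusted p = 2.08e-07, limma). With Usp18, which removes ISG15, 5 of 5 of these genes were called higher, against 1.96% of all genes tested. The 5 were picked from the effector list, in which 44 of 57 were called, and are not the whole pathway.

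Neighbouring or related genes did not always share a call. Parp9 and Dtx3l, partner proteins whose starts lie 0.184 kb apart, differed by 0.26 and 0.27 and were both called in all 15 of the alternatives that both entered, those within single blocks not counted. Rsad2 was called in all 15, while Cmpk2, a nucleotide kinase 13.9 kb away, differed by 0.04 ± 0.014 (adjusted p = 0.064, limma) and was called in 2. Ifitm3 was called in all 15 and Ifitm2, 59.4 kb away, in 0. Samd9l1 differed by 0.17 and Samd9 by 0.05; Psme1 differed by 0.10 and Psme2, which forms the same proteasome cap, by 0.04. Neither Samd9 nor Psme2 was called. Differences between the members of a pair were not tested.

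The other effectors without a call were Isg20, Adar, Mov10, Nmi, Znfx1, Trim14, Shisa5, Trim25 and Tor3a. Adar, which edits adenosine in double-stranded RNA, had a median level of 7.80 in Irf7-high and 7.79 in Irf7-low hemispheres. Its difference was 0.01, with a 95% interval from -0.00 to 0.02. Trim25, a ubiquitin ligase that acts on the RNA sensor RIG-I, differed by 0.09 ± 0.033 (adjusted p = 0.074, limma). Isg20, an exonuclease, differed by -0.02 and Mov10, an RNA helicase, by -0.03.

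Of the nucleic acid sensors and adaptors, 3 of 18 tested were called higher and 0 lower, and the 3 are the cytosolic sensors of viral RNA. Dhx58 (LGP2) differed by 0.37 ± 0.030 (adjusted p = 2.55e-22, limma), with levels of 1.94, 2.36 and 2.95 (lowest, median, highest) in Irf7-high and 1.55, 1.99 and 2.45 in Irf7-low hemispheres. RIG-I, listed as Rig1, differed by 0.31 ± 0.037 and Ifih1 (MDA5) by 0.24 ± 0.033 (adjusted p = 1.82e-11 and 2.48e-09, limma). The adaptors had intervals on both sides of 0. Mavs, through which those sensors signal, differed by -0.00 (95% interval -0.03 to 0.03), Sting1 by 0.02 (-0.04 to 0.08) and Myd88 by 0.00 (-0.05 to 0.05).

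In the signalling chain from receptor to nucleus, Irf9 and Stat2, members of the DNA-binding complex, were called. Irf9 ran from 3.81 through 4.12 to 4.57 in Irf7-high hemispheres, against 3.62, 3.88 and 4.11 in Irf7-low hemispheres; 50 Irf7-high hemispheres lay above every Irf7-low one. Its difference was 0.27 ± 0.020 (adjusted p = 1.54e-25, limma). Stat2 differed by 0.06 ± 0.015 (adjusted p = 0.0045, limma) and the groups overlapped almost fully. The receptor chain Ifnar1 differed by 0.03 ± 0.008 (adjusted p = 0.0173, limma) and its partner Ifnar2 by 0.04 ± 0.016 (adjusted p = 0.113, limma). Of 17 receptor and JAK-STAT genes, 3 were called higher, Stat2 and Ifnar1 among them, and none was called lower. Stat2 was not called between groups drawn by Ifit3, nor Ifnar1 between the upper and the lower 50% of libraries. The kinases Jak1 and Tyk2 differed by -0.01 and -0.06, and the feedback inhibitors Socs1 and Socs3 by 0.01 and 0.03.

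Among the 8 other interferon regulatory factors tested, Irf9 was the 1 that was called. Irf1, induced by interferon gamma, differed by 0.06 ± 0.023 (adjusted p = 0.1001, limma). Irf3, the factor that acts first after viral sensing, differed by -0.09 ± 0.048 and had a median of 4.74 in Irf7-high and 4.87 in Irf7-low hemispheres (adjusted p = 0.233, limma). Irf4, of lymphoid cells and some neurons, differed by -0.10 ± 0.032 (adjusted p = 0.0595, limma). Irf2, Irf5 and the microglial factor Irf8 differed by between -0.00 and 0.03.

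The interferons could not be compared. Of the 18 interferon, cytokine and chemokine genes of the list in the table, 0 reached a mean level of 1, and 10 were at 0 in over 50% of the libraries. Ifnb1 was above 0 in 1 Irf7-high and in 5 Irf7-low hemispheres. Ifna4 was above 0 in 13 Irf7-high and 14 Irf7-low hemispheres, and Ifng in 1 and 3. The chemokine Cxcl10, an interferon target, had the highest mean level of the list, 0.44, with mean CPM of 0.476 in Irf7-high and 0.284 in Irf7-low hemispheres, and it was not tested. Polyadenylated interferon transcripts were thus at or near 0 at this depth.

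**Figure D3:**
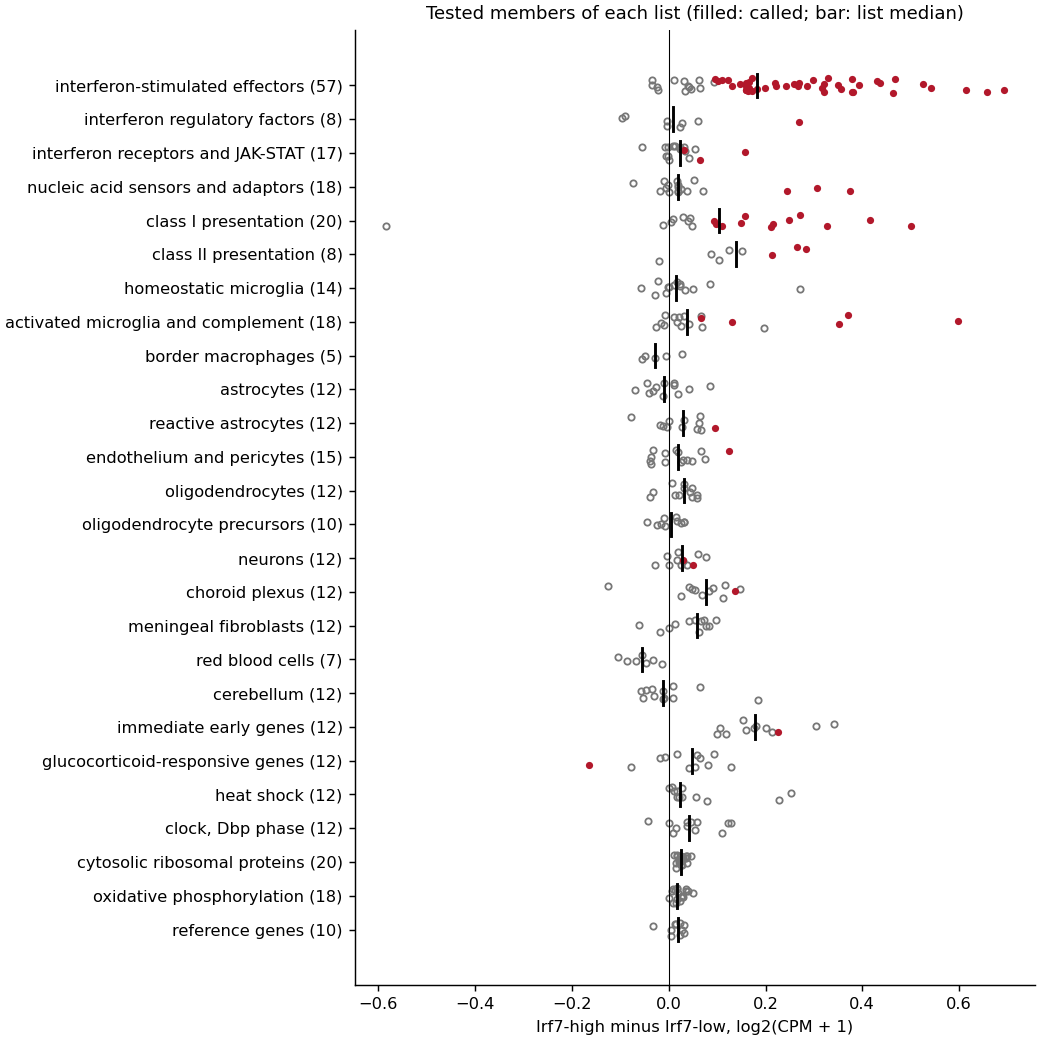
Difference of each tested member of the gene lists with at least 5 tested members, Irf7-high minus Irf7-low, log2(CPM + 1). The sex-linked list is not drawn. Filled red points were called, open circles were not, and the black bar is the median of the list. The effector, class I, complement and sensor lists hold most of the called members. The medians of the cell type lists lie between -0.06 and 0.08.

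The class I pathway, which shows fragments of internal proteins to T cells, was higher in most of its members. Of 20 tested, 12 were called higher and 0 lower. B2m, the light chain shared by class I molecules, ran from 7.27 through 7.55 to 7.72 in Irf7-high hemispheres, against 7.15, 7.39 and 7.81 in Irf7-low hemispheres, a difference of 0.15 ± 0.016 (adjusted p = 6.64e-14, limma). The highest value of all was in an Irf7-low hemisphere, and 77 Irf7-high hemispheres lay above the Irf7-low median. The immunoproteasome subunits Psmb8 and Psmb9 differed by 0.25 and 0.22, the peptide transporters Tap1 and Tap2 by 0.16 and 0.09, the loading factor Tapbp by 0.11 and the transcriptional activator Nlrc5 by 0.21. Tap1 was not called with 5 principal components as covariates (adjusted p = 0.0604, limma) or between the upper and lower 50% of libraries (difference 0.07, adjusted p = 0.174, limma).

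Class I heavy chains are called RT1 in rats, and their genes are many, similar and variable between haplotypes. RT1-T24-4 had the smallest adjusted p of the genes tested. It ran from 3.85 through 4.30 to 5.03 in Irf7-high hemispheres, against 3.39, 3.85 and 4.23 in Irf7-low hemispheres. No Irf7-low hemisphere lay above the Irf7-high median, and 58 Irf7-high hemispheres lay above every Irf7-low one. The difference was 0.50 ± 0.030 (adjusted p = 3.16e-34, limma). RT1-S3 differed by 0.33 ± 0.027, RT1-T24-3 by 0.44 ± 0.058 and RT1-A2 by 0.42 ± 0.074. Of 25 RT1 genes tested, classes I and II together, 10 were called higher and 1 lower. The lower one was RT1-O1l1, with a median of 2.52 in Irf7-high and 2.73 in Irf7-low hemispheres and a difference of -0.41 ± 0.128 (adjusted p = 0.0450, limma). RT1-CE16, which is close to 0 in some libraries and high in others, ran from 0.00 through 3.57 to 5.75 in Irf7-high and from 0.12 through 3.60 to 5.66 in Irf7-low hemispheres; its difference of -0.58 ± 0.273 was not called (adjusted p = 0.178, limma). Reads of one RT1 gene may have been assigned to another, and how that depends on haplotype was not tested.

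Class II presentation, used by microglia and other antigen-presenting cells, gave weaker calls: 3 of 8 tested members were higher. Cd74, the invariant chain, had a median of 3.91 in Irf7-high and 3.59 in Irf7-low hemispheres and a difference of 0.27 ± 0.067 (adjusted p = 0.0112, limma). RT1-Da differed by 0.28 ± 0.058 and RT1-Ba by 0.21 ± 0.063. With 5 principal components as covariates none of the 3 was called, with an adjusted p of 0.275 for Cd74, 0.052 for RT1-Da and 0.356 for RT1-Ba (limma). Between the upper and lower 12.5% of libraries none was called either. Between the upper and lower 50%, neither Cd74 nor RT1-Ba was called, and Cd74 was not called between groups drawn by Ifit3. RT1-Ba was also not called without a minimum level or with the library identifier, Ddx3y or the microglial score as a covariate.

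Some complement genes were higher, C4a, C4b and Cfb among them. C4a ran from 4.55 through 5.18 to 5.96 in Irf7-high hemispheres, against 4.42, 4.79 and 5.14 in Irf7-low hemispheres, a difference of 0.37 ± 0.029 (adjusted p = 8.25e-24, limma). C4b ran from 0.59 through 1.64 to 2.74 in Irf7-high hemispheres, against 0.53, 1.001 and 1.55 in Irf7-low hemispheres, a difference of 0.60 ± 0.045 (adjusted p = 4.14e-25, limma). In both, about the same number of Irf7-high hemispheres lay above every Irf7-low one, 50 for C4a and 51 for C4b. They are near copies, so the split of reads between them is uncertain. Cfb, the protease of the alternative pathway, differed by 0.35 ± 0.029 (adjusted p = 9.50e-22, limma). Of 18 genes of activated microglia and complement tested, 5 were called higher: these 3, Serping1 at 0.13 and Cd63 at 0.07. Neither Serping1 nor Cd63 was called without a minimum level, or with the library identifier, Ddx3y, the microglial score or 5 principal components as covariates. Both also lost their call between the upper and lower 12.5% and the upper and lower 50% of libraries. Between groups drawn by Ifit3, Serping1 was not called. C3 differed by 0.20 ± 0.063 (adjusted p = 0.0531, limma). C1qa, C1qb and C1qc, whose products start the classical pathway, differed by 0.02, -0.02 and -0.01 and were not called (adjusted p = 0.745, 0.696 and 0.847, limma).

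Few markers of cell types were called. In bulk tissue, fewer cells of a type and less RNA per cell cannot be told apart. Of 14 homeostatic microglial markers tested, 0 were called in either direction, and their median difference was 0.014. Their summed CPM over the 15 listed markers ran from 264.6 through 308.04 to 348.3 in Irf7-high hemispheres, against 252.5, 303.3 and 346.6 in Irf7-low hemispheres. Tyrobp, the microglial adaptor nearest to a call, differed by 0.08 ± 0.028 (adjusted p = 0.0606, limma). Calls were 0 of 5 for border macrophages, 0 of 12 for astrocytes and 0 of 12 for oligodendrocytes. They were 0 of 10 for oligodendrocyte precursors and 0 of 12 each for meningeal fibroblasts and cerebellum. Over all genes tested 3.72% were called, so 0 calls in lists of this size say little. Differences lay above 0 in 11 of 12 choroid plexus genes (median 0.076) and 10 of 12 meningeal fibroblast genes (median 0.059). The same held for 10 of 12 oligodendrocyte, 5 of 12 astrocyte and 4 of 12 cerebellar genes, against 47.4% of all genes tested.

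The blood-borne cells were near the limit of measurement. Of 14 lymphocyte markers, 2 (Cd4 and Ptprc) reached a mean level of 1 and neither was called. The T-cell marker Cd3e had a mean level of 0.44, with mean CPM of 0.363 in Irf7-high and 0.369 in Irf7-low hemispheres. Of 10 neutrophil and monocyte markers, 0 reached that level, and S100a8 averaged 0.0563 CPM in Irf7-high and 0.0559 in Irf7-low hemispheres. Of 7 red blood cell genes tested, 0 were called, and all 7 differences lay below 0.

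In the remaining lists, single members were called. Cdh5, the junction protein of endothelium, differed by 0.12 ± 0.025 (adjusted p = 4.46e-04, limma) and was 1 of 15 vascular genes called. Cd109 was 1 of 12 reactive astrocyte genes (0.10), Folr1 1 of 12 choroid plexus genes (0.14), and Syp and Tubb3 were 2 of 12 neuronal genes (0.03 and 0.05). Syp, Tubb3 and Folr1 were not called with 5 principal components as covariates or between the upper and lower 50% of libraries. Tubb3 and Folr1 also lost their call without a minimum level and when the library set aside was kept. With the library identifier, Ddx3y or the microglial score as a covariate these 2 were not called either. Tubb3 was also not called with the alternative scaling or between groups drawn by Ifit3. Of 12 genes of the glucocorticoid list, Sult1a1 was called lower (-0.16). None of 20 ribosomal protein genes, 18 oxidative phosphorylation genes, 12 heat shock genes, 12 clock genes or 10 reference genes was called. Their differences were nevertheless mostly above 0, in 20 of 20, 18 of 18, 12 of 12, 11 of 12 and 9 of 10 genes, against 47.4% of all genes tested. The medians of these lists were 0.02, 0.02, 0.02, 0.04 and 0.02. The part of this shift in other results was not tested.

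Immediate early genes, which neurons and vessels switch on within minutes of stimulation, also had positive differences in all 12 members, with a median of 0.18. As the lists above show, differences all of one sign were not particular to them. Egr4 was the only member called, at 0.23 ± 0.062 (adjusted p = 0.0246, limma). It was not called with the library identifier (adjusted p = 0.0949, limma) or 5 principal components as covariates. Nor was it called between the upper and lower 12.5% or the upper and lower 50% of libraries. Egr2 differed by 0.34 ± 0.109 (adjusted p = 0.0531, limma). Their summed CPM had a median of 723 in Irf7-high and 579 in Irf7-low hemispheres. Its part in the effector differences was not tested.

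The labels used here do not give sex, which was read from Ddx3y, a gene of the Y chromosome. A level of Ddx3y above 3 was found in 44 of 85 Irf7-high hemispheres (51.8%) and in 33 of 85 Irf7-low hemispheres (38.8%). Ddx3y and Xist were not called (adjusted p = 0.280 and 0.251, limma). With Ddx3y as a covariate, 43 effectors were called higher. With a microglial score as a covariate 44 were, with 5 principal components 43, and with the library identifier 42. Library identifiers share their first characters in blocks, the meaning of which the labels do not give. Within the 4 blocks that could be fitted, the median effector difference was 0.21 (12 Irf7-high and 17 Irf7-low), 0.20 (17 and 10), 0.16 (38 and 34) and 0.24 (8 and 12). Between 51 and 54 of the 57 effectors had a positive difference in each block, against 44.1% to 48.7% of all genes.

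The effectors were also followed over the whole range of Irf7. The mean level over the 57 effectors was 2.76 ± 0.06 in the lowest quartile of Irf7, 2.83 ± 0.06 in the second, 2.87 ± 0.07 in the third and 2.997 ± 0.105 in the highest (SD, n = 85, 85, 86 and 85). In Irf7-high hemispheres it ran from 2.83 through 2.97 to 3.37, against 2.57, 2.76 and 2.92 in Irf7-low hemispheres. Of the Irf7-high hemispheres, 64 lay above every Irf7-low one, and no Irf7-low hemisphere lay above the Irf7-high median. As a description over libraries that share their scaling, Pearson's r of this mean with Irf7 was 0.71 within the Irf7-high hemispheres, 0.31 within the Irf7-low ones and 0.35 within the middle libraries. The mean pairwise r between effectors, given without a test, was 0.18 in Irf7-high hemispheres, against 0.07 in Irf7-low hemispheres and 0.08 in the middle libraries. The choice by Irf7 set its spread in each group, with an SD of 0.341 in Irf7-high, 0.192 in Irf7-low and 0.160 in the middle libraries. Because r depends on spread, these values of r cannot show whether the genes are more tightly linked in one group than in another. Usp18 averaged 1.16, 1.42, 1.501 and 1.86 over the 4 quartiles of Irf7 from low to high, Irf9 averaged 3.88, 3.97, 4.01 and 4.15, and C4a averaged 4.79, 4.89, 4.97 and 5.16.

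**Figure D4:**
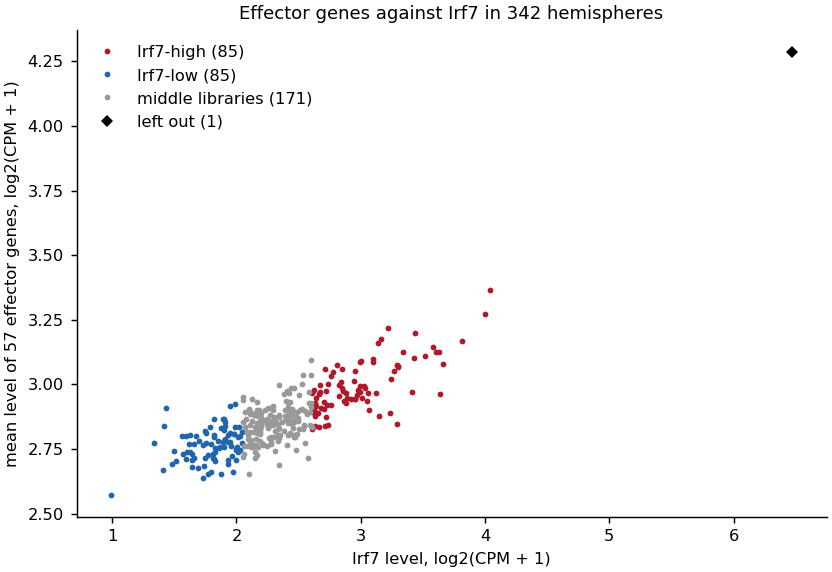
Mean level of the 57 tested effectors (vertical axis) against the Irf7 level (horizontal axis), both log2(CPM + 1), in each hemisphere. Red points are the 85 Irf7-high, blue the 85 Irf7-low and grey the middle libraries. The black diamond is the library set aside, at 6.47 for Irf7 and 4.28 for the effectors, apart from all others.

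In the middle libraries, which were in neither group, the slope of each gene on Irf7 was tested. Only 2 genes, 0.012% of those tested, had a slope that passed an adjusted p of 0.05 (limma): RT1-T24-4 at 0.43 and Apol9a at 0.52, both positive. Before adjustment, 20 of 57 effectors had a positive slope at p under 0.05, against 1.71% of all genes. The slope was above 0 for 48 of the 57, against 50.4% of all genes. The 10 genes with the highest Pearson r with Irf7 in these libraries, given as a description, were RT1-T24-4 (0.40), Apol9a (0.35), Cfb (0.32), Dhx58 and LOC133667826 (0.29 each), Ifit3 (0.28), Serhl2, LOC134485553 and RT1-S3 (0.27 each) and Parp14 (0.26). Of these 10, Serhl2 and LOC134485553 were not called between the groups, with differences of -0.00 and 0.01.

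The groups were also drawn by Ifit3 instead. These groups rest on the same association of Irf7 with Ifit3 as those drawn by Irf7, so they are no independent support, and the level of Irf7 in them is given without a test. It averaged 2.73 ± 0.54 in the top and 2.08 ± 0.37 in the bottom 25% of Ifit3 (SD, n = 85 each), a difference of 0.65 ± 0.070 (SE). These groups shared 45 high and 38 low hemispheres with those drawn by Irf7. Of the 44 effectors called higher between the Irf7 groups, 39 were called higher again, and 43 had the same sign.

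The genes around Irf7 on chromosome 1 were examined as its neighbours. Of 60 genes of the table with a start within 500 kb, 36 were tested. Among these 36, 2 were called higher and 1 lower, against 1.96% and 1.76% of all genes tested. Ifitm3, itself an effector, starts at -258.8 kb from Irf7, on the side of lower coordinates, and differed by 0.35. Rplp2, a ribosomal protein gene, differed by 0.06 and Pnpla2, a triglyceride lipase, by -0.12. The tested genes nearest to Irf7 on either side, Phrf1 at -37.3 kb and Deaf1 at 64.6 kb, differed by -0.01 and -0.03 and were not called. Apart from Ifitm3, the highest difference in the window was that of Rplp2.

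**Figure D5:**
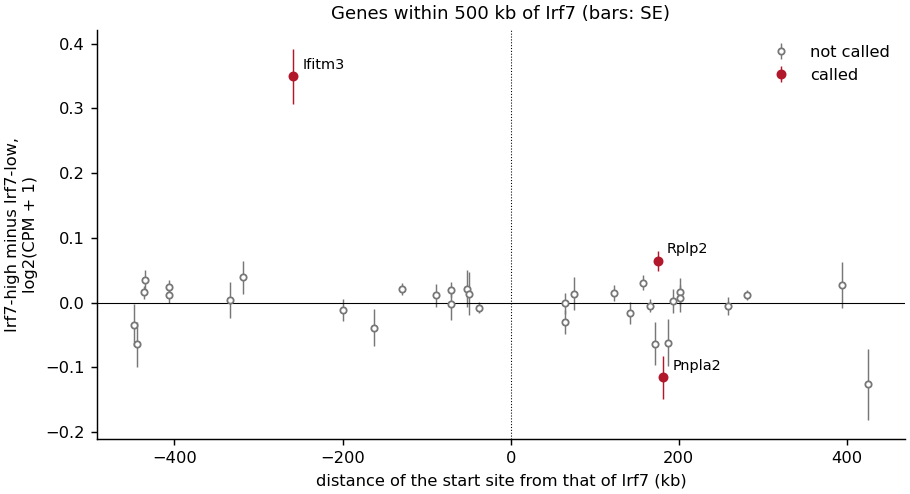
Difference (vertical axis, Irf7-high minus Irf7-low, log2(CPM + 1), bars SE) of the 36 tested genes within 500 kb of the start of Irf7, by distance from it in kb. Filled points were called. Ifitm3 stands at 0.35 and Rplp2 and Pnpla2 at 0.06 and -0.12, with the genes nearest to Irf7 close to 0.

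Beyond the lists, the larger differences ran one way. Of the 620 genes called (3.72%), similar shares were higher (1.96%) and lower (1.76%), but at a size of at least 0.25 there were 47 higher and 4 lower (0.282% and 0.024%). Of the 47, 24 were effectors, 12 were in another list and 11 in none. The 11 include Mis18a, which loads centromeric histone, at 0.40 ± 0.119. Its level ran from 0.00 to 2.96 in Irf7-high and from 0.00 to 2.69 in Irf7-low hemispheres. Its call was lost with a pseudocount of 0.1 and without a minimum level. With the library identifier, the microglial score or 5 principal components as covariates it was not called either. Nor was it called between the upper and lower 50% of libraries or between groups drawn by Ifit3. Chromosome 20, which carries the RT1 and complement genes, had 8.42% of its 475 tested genes called, the highest share of any chromosome. All but these 4 of the genes called lower differed by less than 0.25. Those of largest size with a gene name, after RT1-O1l1, were H2-M10.6l (-0.24), the sperm gene Eqtn (-0.23), Sh2d4b (-0.20), Ldlrad1 (-0.19), the vasopressin receptor Avpr2 (-0.17), Slc25a52 (-0.17) and the non-coding Ftx (-0.17). With the library identifier as a covariate 59 of the lower genes were called lower again, and with 5 principal components 25.

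The motif of the promoters printed above was counted in all 27457 RefSeq windows, as letters and not as binding sites. It was present in 3.77% of all windows and in 2.97% of the 13537 windows of tested genes. Of the genes called higher by at least 0.25, 39 had a window and 20 held the motif (51.3%). The share was 14.2% for genes called higher by less, and 0.851% for genes called lower. Among the effectors, many of which are textbook targets of this element, 24 of 37 called and 4 of 10 not called held it. The windows of C4a, C4b and RT1-T24-4 did not hold these letters, while that of RT1-S3 held 1 match. Usp18, Rtp4, Isg15, Mx2, Dhx58 and Cfb have no window in the table used.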

How the data were processed

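The authors deposited 1 table of log2 values, per the name of the table: log2 of an estimated count plus 1 for 38354 genes, made with kallisto per the submitters' processing notes. The values are not corrected for depth. The name of the table gives the rn8 build, and 38278 of its genes were matched to RefSeq's GRCr8 table. The labels hold 352 samples; 342 were matched to columns by title or library name, and 10 were not analysed here. Of the 342, 1 was set aside and 85 fell in each group, which leaves 171 middle libraries. Labels state no covariate, and nothing says more of replicates than that each is a separate hemisphere.

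The log2 values as deposited were turned back, scaled to 1000000 per library and logged again with a pseudocount of 1. Library totals ran from 5418230 to 42980793, with a median of 21881769, so a level of 1 rests on few counts in the shallowest libraries. Genes of mean level under 1 were left out, and Irf7 was not tested. Groups were compared with limma 3.58.1 (R 4.3.3, trend on and robust off), two-sided, with Benjamini-Hochberg adjustment over 16678 genes. A call is an adjusted p under 0.05; a second rule also asks for a difference of at least 0.25. The test was checked on simulated counts drawn independently for each gene and library. These held neither related rats nor groups chosen by a measured gene, so the check does not cover those features. P-values treat the libraries as independent, whereas rats of this stock are related.

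The groups, members and lists were chosen with earlier results of these data known. Named genes are Irf7, Ifit3 and Usp18, the 15 highest and 15 lowest differences among called genes with a gene name, up to 5 members of each list by size of the test statistic, all tested regulatory factors and receptor genes, genes within 500 kb of Irf7, and the 10 most like Irf7 in the middle libraries. Other effectors and list members named were picked to describe their list. Alternatives changed the pseudocount, scaling, minimum level, covariates, size of the groups, libraries and choosing gene. Some genes of these lists are not reported here.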

Additional observations from a re-analysis of the deposited data

Results flagged for a closer look

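One library was outside the comparison, set aside for an Irf7 level of 6.47, against a highest value of 4.04 in Irf7-high and 2.04 in Irf7-low hemispheres. Its Usp18 level was 4.59 (highest 2.74 in Irf7-high and 1.82 in Irf7-low hemispheres), and its Ifit3 level was 5.10 (3.48 and 2.31). Oas1a stood at 3.85 (2.44 and 1.71), Oasl2 at 4.85 (3.46 and 2.51) and Rsad2 at 5.12 (2.81 and 1.99). The mean level of the 57 effectors was 4.28, against a highest of 3.37 in Irf7-high and 2.92 in Irf7-low hemispheres. These values are listed because a signal well above both groups appeared in a library that the main comparison did not use. It entered only an alternative in which the groups were drawn with it kept. In this library 47 of 57 effectors and 1.49% of all tested genes lay above each of the other libraries. Its total was 2.38e+07 estimated counts, and its summed microglial CPM of 378 lay above the highest in Irf7-high (348.3) and Irf7-low hemispheres (346.6). The summed CPM of the interferon, cytokine and chemokine list was 14.2, against highest values of 3.09 in Irf7-high and 2.08 in Irf7-low hemispheres. That sum includes chemokines such as the interferon target Cxcl10, and the part of the interferons in it was not separated. It is 1 library, so no error can be given.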

How the results depend on the processing

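Of the 44 effectors called higher, all those tested kept their direction in 15 of the 16 alternatives fitted over all blocks (the 14 left at a minimum level of 3 included); between groups drawn by Ifit3, 43 of 44 did. The median difference over all effectors tested ranged from 0.11 to 0.26. The count of effectors called moved by over 1.5 times with a minimum level of 3, to 14, since fewer were tested, and within identifier blocks 000789, 00078A, 000792 and 00079F, to 9, 8, 24 and 3, where fewer libraries entered. Counts over all genes moved more. Genes higher made up 1.96% of those tested, but 0.781% without a minimum level, where more genes were tested, 0.893% with the block as a covariate, 1.21% with the microglial score, 0.785% with 5 principal components, 0.498% between the upper and lower 50% of libraries, 7.38% between groups drawn by Ifit3, and 0.12%, 0.0899%, 0.282% and 0.066% within blocks. Genes lower made up 1.76%, but 0.563% without a minimum level, 0.354%, 0.941%, 0.72% and 0.288% with the block, Ddx3y, microglial and component covariates, 0.042% between the upper and lower 50%, 4.84% by Ifit3, 3.19% without the 5% of libraries with fewest counts, and 0.012%, 0%, 0.006% and 0.006% within blocks. Genes higher by at least 0.25 (47) numbered 14 with a minimum level of 3, 12 between the upper and lower 50%, and 19, 15 and 11 within blocks 000789, 00078A and 00079F. Genes lower by as much (4) numbered 14 with a pseudocount of 0.1, 10 between the upper and lower 12.5%, 2 without a minimum level, 1 with a minimum of 3, with the Ddx3y or microglial covariate and by Ifit3, 0 with the block or component covariates and between the upper and lower 50%, and 2, 0, 0 and 1 within blocks. Beyond the genes or libraries lost, the cause was not tested. Within block 000792 the sign turned for LOC134483347 (0.0039) and Trim34 (-0.0206). Among the genes called alike with no covariate, with the block and with 5 components, 17 were lower and 42 were effectors. The 2 genes called in the middle libraries became 2 to 3 under the alternatives there. Levels near 1 rest on few counts. No paired analysis was possible because both groups come from 1 label group whose libraries each have a number of their own.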

Other observations

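Some families of interferon-inducible genes stand outside the lists or only partly in them, and were chosen after their values were seen, so they get no test of their own. All 6 tested genes of the immunity-related GTPases, which in mice attack the vacuoles of intracellular parasites, were called higher, with a median difference of 0.25. Irgm ran from 1.83 through 2.34 to 2.87 in Irf7-high hemispheres, against 1.53, 2.07 and 2.54 in Irf7-low hemispheres, a difference of 0.31 ± 0.033. Irgm2 differed by 0.29 and Igtp by 0.20, and Ifgga2l1 by 0.36. The 3 tested guanylate-binding proteins, Gbp2, Gbp5 and Gbp7, and the 3 tested apolipoprotein L genes were called higher too, as were 3 of 5 Schlafen genes. Near copies within these families may have exchanged reads. Of 12 PARP genes 5 were called higher, and of 42 TRIM genes 4 were called higher and 2 lower. The shares over all genes tested were 1.96% higher and 1.76% lower. The large ubiquitin ligase Rnf213 differed by 0.22 ± 0.022, with a median of 4.26 in Irf7-high and 4.04 in Irf7-low hemispheres. Of 11 complement genes tested, 6 were called higher: C4a, C4b, Cfb, C2 (0.14), C1s (0.14) and C1r.

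A stretch of chromosome 1 held 5 of the genes called lower, which was noticed after the values were seen. Between Ube3al1 and Peg12 (chr1:119604844-125377002, GRCr8), around the imprinted genes Snrpn and Ndn, 28 genes were tested. Of these, 5 were called lower and 2 higher, against 1.76% and 1.96% of all genes tested. Differences lay below 0 in 18 of the 28, against 52.6% of all genes. The 5 lower ones carry locus names only, and LOC134485123 had the largest size, at -0.35 ± 0.107, with a median of 1.43 in Irf7-high and 1.76 in Irf7-low hemispheres. With the library identifier or with 5 principal components as covariates, 1 of the 28 was called lower. Of the named genes there, Ndn was called higher at 0.05, and Snrpn (0.04) and Magel2 (0.05) were not called.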
